A study of Homo sapiens with 8 samples.

Results

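Transcripts of 10 genes of the endoplasmic reticulum folding machinery were followed: HSPA5, HSP90B1, CALR, CANX, PDIA3, PDIA4, PDIA6, DNAJB9, SDF2L1 and MANF. They were chosen by gene symbol, with HSPA5 and HSP90B1 known to be among the most abundant transcripts of these cells, and all 10 genes were found among the 34415 genes of the deposited table. The libraries came from TeloHAEC, an immortalised line derived from human aortic endothelial cells, of wild-type genotype, grown with palmitic acid in the medium. Of the 8 libraries, 4 were titled control and 4 were titled as supplied with estradiol, the main estrogen. The titles do not say whether the controls had a vehicle. Palmitic acid was common to both groups, and no library without it was analysed here. The titles give palmitic acid for both groups, while the treatment field reads "Control" in one group and "PA-supplied" in the other. The sources used here give neither doses nor times of exposure. The line is a single immortalised line, and nothing in the labels says that the replicates were separate cultures, so p-values below reflect the scatter of these libraries alone, part or all of which may be technical.

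Proteins bound for the cell surface, the secretory pathway or the extracellular matrix fold in the lumen of the endoplasmic reticulum. HSP70-type and HSP90-type chaperones bind unfolded chains there, the lectin chaperones hold proteins that carry N-glycans, and protein disulfide isomerases form and rearrange disulfide bonds. When unfolded proteins accumulate, the sensors IRE1, PERK and ATF6 start the unfolded protein response, which raises transcription of many of these chaperones. Palmitic acid and other saturated fatty acids are known inducers of this response, and endothelial cells make and secrete much matrix and vascular protein through the same route.

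Levels are given as FPKM, fragments counted per kilobase of gene length and scaled to the depth of the library, so that genes of different length can be set side by side. The spacing of the FPKM values gave back 33421051 to 39899258 reads per library, and the 10 genes together held 2.92% to 3.48% of them. Control replicate 3 and estradiol replicate 4 stood apart from the other 6 libraries on the first principal component of all tested genes, which held 68.7% of the variance. Across 10526 genes, the level in this pair relative to the other 6 libraries had a Spearman rho with transcript GC content of -0.89 (genes of the same libraries, not replicates). The labels name no batch. Results on the 10 genes are therefore given with all 8 libraries and with the 6 that remain without this pair. Those 6 libraries are not free of a trend with GC content. Spearman's rho between GC content and a gene's deviation from its median ran from 0.65 in control replicate 4 to -0.34 in estradiol replicate 3.

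HSPA5, which encodes BiP, the HSP70 of the endoplasmic reticulum and a brake on the stress sensors, had the highest mean level of the 10, at 3191 FPKM over all libraries. The control libraries measured 2859.6, 3072, 3246 and 3201 FPKM in the order of their replicate numbers, and the estradiol libraries 3184, 3280.3, 3261 and 3427. The lowest value was in control replicate 1 and the highest in estradiol replicate 4, and the groups overlapped, since control replicates 3 and 4 lay above estradiol replicate 1. The means were 3095 ± 173 and 3288 ± 102 FPKM (SD, n = 4 each), a log2 fold change of 0.09 ± 0.07 (SE). In bulk RNA such as this, a change in RNA per cell and a change in the make-up of the culture cannot be told apart.

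DNAJB9, also called ERdj4, is a J-domain co-chaperone that brings substrates to BiP and helps BiP restrain IRE1. Its control libraries measured 189.5, 181.6, 300.1 and 164 FPKM and its estradiol libraries 186.2, 187.3, 187.5 and 272. Control replicate 3 and estradiol replicate 4 were far above the rest, and estradiol replicates 1 to 3 lay between 186.2 and 187.5 FPKM. The means were 209 ± 61.7 and 208 ± 42.3 FPKM (SD, n = 4 each), the widest relative spread of the 10 genes, with a coefficient of variation of 23.5% over the 8 libraries. Over the 6 libraries without that pair it was 5.14%, below 8.81% for SDF2L1 and 6.22% for MANF.

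SDF2L1 forms a complex with J-domain proteins and keeps BiP clients soluble. It was the lowest of the 10, at 154, 140.2, 116 and 155 FPKM in control and 171, 169.8, 139.6 and 112 in estradiol libraries. The same pair of libraries, control replicate 3 and estradiol replicate 4, was the lowest in each group, and the groups overlapped. MANF, a small secreted and lumenal protein that binds BiP and slows its nucleotide exchange, measured 538, 545, 474 and 572 FPKM in the control and 616, 627, 581 and 475 in the estradiol libraries. Here too the pair was lowest, at nearly the same level in both groups, while the other 3 estradiol libraries lay above all control libraries. The means were 532 ± 41.3 and 575 ± 69.5 FPKM (SD, n = 4 each), a log2 fold change of 0.11 ± 0.11 (SE), the highest of the 10.

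HSP90B1 encodes GRP94, the HSP90 of the endoplasmic reticulum, whose known clients include integrins and Toll-like receptors. The control libraries measured 2434, 2461, 3282 and 2434 FPKM and the estradiol libraries 2567, 2395, 2522 and 3586. In 6 libraries the gene lay between 2395 and 2567 FPKM, below HSPA5, and in control replicate 3 and estradiol replicate 4 it was above HSPA5. The means were 2653 ± 419 and 2767 ± 551 FPKM (SD, n = 4 each), a log2 fold change of 0.05 ± 0.15 (SE).

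CALR (calreticulin, soluble) and CANX (calnexin, anchored in the membrane) are the lectin chaperones, and PDIA3 (ERp57) is the disulfide isomerase that works with both. CALR measured 1583, 1528, 1135 and 1583 FPKM in the control and 1555, 1535, 1498 and 1104 in the estradiol libraries. CANX measured 435, 443, 557 and 428 FPKM in control and 457, 449, 449.9 and 562 in estradiol libraries. The 2 lectin chaperones thus lay on opposite sides in control replicate 3 and estradiol replicate 4, where CALR was lowest and CANX highest. PDIA3 measured 475, 489, 548 and 496 FPKM in control and 481, 469.8, 489 and 614 in estradiol libraries, and was highest in the same pair. The groups overlapped for all 3 genes, with means of 1457 ± 217 and 1423 ± 214 for CALR, 466 ± 61.3 and 479.6 ± 55.0 for CANX, and 502 ± 31.9 and 513 ± 67.4 for PDIA3 (SD, n = 4 each, control first). CALR was the only one of the 10 with a negative log2 fold change, -0.03 ± 0.15 (SE).

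PDIA4 (ERp72) and PDIA6 (P5) are further disulfide isomerases, and PDIA6 is also known to act on the sensor IRE1. PDIA4 measured 503, 489, 394 and 513 FPKM in control and 501, 514, 489.9 and 397 in estradiol libraries, lowest in the same pair as CALR. PDIA6 was the steadiest of the 10 over the 8 libraries, at 443, 434, 444 and 438 FPKM in control and 460.2, 435, 438 and 443 in estradiol libraries. Its coefficient of variation over the 8 libraries was 1.88%, against 10.5% for PDIA4, and the pair did not stand apart. Over the 6 libraries without the pair it was 2.21%, against 2.11% for PDIA4, so PDIA6 was not the steadiest there.

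**Figure D1:**
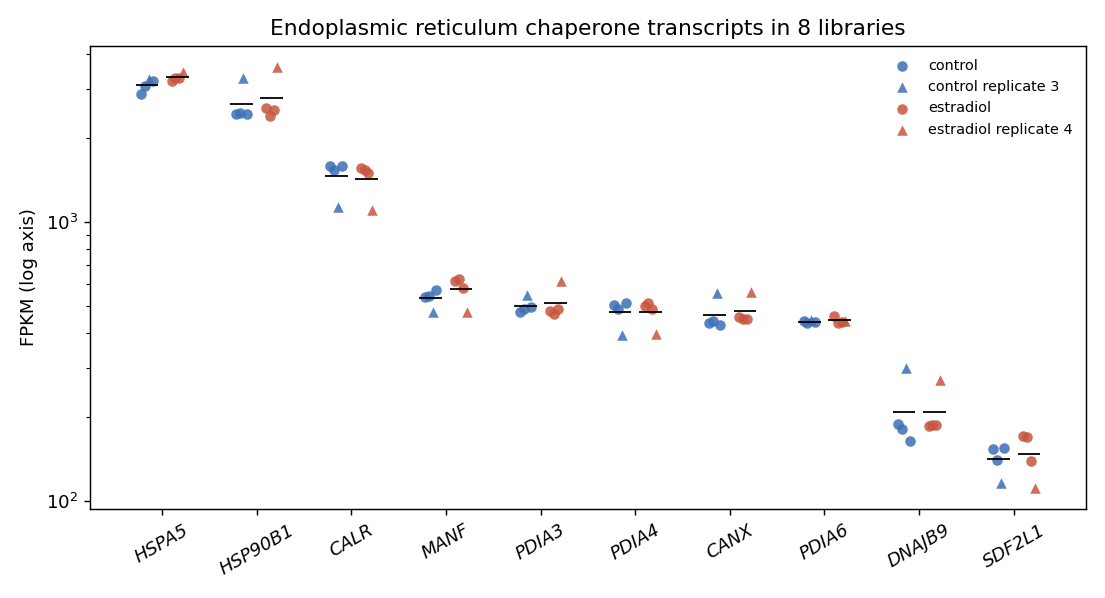
FPKM (log axis) of each gene in the 8 libraries, control in blue and estradiol in red, with control replicate 3 and estradiol replicate 4 as triangles and the group mean as a black line. Genes are ordered by mean level, from 3191 FPKM for HSPA5 to 145 FPKM for SDF2L1, and the triangles lie apart from the circles in 8 of the 10 genes.

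The order of the mean levels over all 8 libraries was HSPA5, HSP90B1, CALR, MANF, PDIA3, PDIA4, CANX, PDIA6, DNAJB9 and SDF2L1. Means ran from 3191 FPKM to 145 FPKM, and 7 of the 10 were among the 100 most abundant genes of the table. This order is a description, since the level of the first 2 entered the choice of the genes. HSPA5 ranked between 6 and 8 in a library and HSP90B1 between 6 and 10. CALR, at 1440.1 FPKM, was below HSP90B1 and above MANF in 8 of 8 libraries. The ranges of HSPA5 and HSP90B1 overlapped over the 8 libraries, with HSPA5 higher in 6 of 8. Between MANF (554 FPKM) and PDIA6 (442 FPKM), all neighbours had overlapping ranges over the 8 libraries. PDIA3 exceeded PDIA4 in only 2 of 8 libraries although its mean was higher, 508 against 475 FPKM. CANX exceeded PDIA6 in 5 of 8. With the pair set aside, PDIA3 exceeded PDIA4 in 0 of 6 libraries, with means of 483 and 502 FPKM. The place of PDIA3 above PDIA4 thus rested on the pair. CANX exceeded PDIA6 in 3 of those 6. There the ranges of HSPA5 and HSP90B1 no longer overlapped, nor did those of MANF and PDIA3 or of PDIA4 and CANX. RefSeq names pseudogene copies of HSPA5, HSP90B1 and PDIA3, and the sources used here do not say how reads shared with such copies were assigned, so these 3 levels are uncertain to that extent.

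Counting error was small beside the spread between libraries. HSPA5 rested on 429980 to 521142 recovered reads per library and SDF2L1, the lowest, on 3587 to 5537. At the lowest of these counts a Poisson error would be 0.153% for HSPA5 and 1.67% for SDF2L1. Their coefficients of variation over the 6 libraries without the pair were 4.99% and 8.81%. These errors cover counting only, since reads without molecular identifiers are not independent molecules.

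Most of the promoters held a motif already known from chaperone genes such as these. Its presence was therefore likely in advance and is a description, not a test. The endoplasmic reticulum stress response element (ERSE) is the sequence through which ATF6, with the factor NF-Y, and XBP1 are known to act on chaperone genes, and a shorter form is called ERSE-II. RefSeq promoter windows of 300 bases (250 before and 50 after a gene's start, GRCh38.p14) were matched by symbol for 9 of the 10 genes, all but PDIA3. Both strands were searched for ERSE, written as CCAAT, any 9 bases and then CCACG, and for ERSE-II, written as ATTGG, any 1 base and then CCACG. ERSE was found for HSPA5, HSP90B1, CALR, CANX and PDIA6, 5 of the 9 genes, and in 0.0916% of the 27305 genes with a window. ERSE-II was found for SDF2L1, and in 0.0696% of all genes. No window of the table held both. The sites are shown because motifs of this kind are a known link between chaperone genes and the unfolded protein response. Each is written 5′ to 3′ on the strand of the gene, with the match in capitals. Where the motif lies on the opposite strand, as in CALR, SDF2L1 and the second site of HSP90B1, the capitals show its reverse complement.
HSPA5, chr9:125241361-125241439, minus strand: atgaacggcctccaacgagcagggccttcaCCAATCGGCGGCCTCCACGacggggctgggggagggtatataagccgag
HSP90B1, first site, chr12:103930211-103930239, plus strand: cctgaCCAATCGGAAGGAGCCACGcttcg
HSP90B1, second site, chr12:103930316-103930344, plus strand: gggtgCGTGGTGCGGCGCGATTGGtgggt
CALR, chr19:12938359-12938432, plus strand: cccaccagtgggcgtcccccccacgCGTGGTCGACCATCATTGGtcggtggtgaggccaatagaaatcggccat
CANX, chr5:179698773-179698801, plus strand: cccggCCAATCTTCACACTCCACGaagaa
PDIA6, chr2:10812848-10812876, minus strand: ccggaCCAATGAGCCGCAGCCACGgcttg
SDF2L1, chr22:21642084-21642154, plus strand: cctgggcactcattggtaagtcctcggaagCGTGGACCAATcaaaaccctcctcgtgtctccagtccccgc

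In the HSPA5 promoter the match began 66 bases before the start of the gene, and in CALR, the farthest, 225 bases before it. HSP90B1 alone had 2 matches, at 194 and 89 bases before the start. The letters CCACG, which end both motifs and match far more often, were present for all 9 genes and for 42.1% of all genes. For DNAJB9, MANF and PDIA4 neither full motif was found in these windows. Only exact matches were counted, for every gene, and inexact copies of the motifs were not searched for. The estrogen response element, the palindrome known to bind estrogen receptors, searched as GGTCA, any 3 bases and then TGACC, was found for 0 of the 9 genes and for 0.0732% of all genes. A match is a description of the letters and not evidence of binding, and the sources used here do not give the authors' genome build.

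With estradiol, none of the 10 genes passed the test. Levels on the log2(FPKM + 1) scale were compared with limma over the 10720 genes with a mean of at least 1 FPKM, two-sided, with Benjamini-Hochberg adjustment over all of them, and all 10 genes entered. At an adjusted p under 0.05, 0 of the 10 were higher and 0 lower, as were 0% of all tested genes in each direction, and the adjusted p was 0.999989 for each of the 10. At an unadjusted p under 0.05 the count was 0 of 10, against 26 genes or 0.243% of all tested. limma-voom on the recovered reads also gave 0 genes, with 22 at an unadjusted p under 0.05. With no differences at all, about 1 in 20 genes would on average fall under that level. These limma p-values thus ran high, and a count of 0 of 10 says little. The median SE over all tested genes was 0.125, against 0.0647 without control replicate 3 and estradiol replicate 4. The groups did not overlap for 0 of the 10 genes, against 0.308% of all tested genes whose 4 estradiol libraries lay above all 4 control libraries and 0.224% whose 4 lay below. Accordingly no member reached the smallest exact permutation p that 4 against 4 libraries allow, 0.0286 two-sided, which 0.532% of all tested genes reached.

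The intervals show how large a difference these libraries could still hold. For HSPA5 the 95% interval of the ratio of FPKM + 1 ran from 0.95 to 1.19, with an unadjusted limma p of 0.252 and an exact two-sided permutation p of 0.114 over the 70 relabellings of the libraries. For HSP90B1 it ran from 0.825 to 1.31, for CALR from 0.779 to 1.22, for MANF from 0.909 to 1.27 and for SDF2L1 from 0.82 to 1.32. The narrowest was that of PDIA6, from 0.906 to 1.13, and the widest that of DNAJB9, from 0.745 to 1.37. A difference of 1.5-fold thus lay outside the interval of every one of the 10 genes, while one of 1.1-fold upwards lay inside all of them. The log2 fold change was positive for 9 of the 10 genes, against 49.5% of all tested genes, with a median of 0.03 against -0.00047. The members were measured in the same libraries, so their signs are not independent.

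Without control replicate 3 and estradiol replicate 4, the intervals narrowed and MANF was the one gene whose interval lay above 0. In the remaining 3 control libraries MANF measured 538 to 572 FPKM and in the 3 estradiol libraries 581 to 627, and the groups did not overlap. The log2 fold change was 0.14 ± 0.05 (SE), with a 95% limma interval from 0.03 to 0.25. It did not pass over all genes tested, with an unadjusted p of 0.0216 and an adjusted p of 0.990506 by limma. Of all genes tested in these 6 libraries, 3.85% had an unadjusted p under 0.05 and 0% passed after adjustment. MANF was 1 of the 10 members, and the only one, at that unadjusted level.

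CANX was the other gene whose groups did not overlap in the 6 libraries, at 428 to 443 FPKM in the control and 449 to 457 in the estradiol libraries, with a log2 fold change of 0.05 ± 0.04 (SE). Among all genes tested in them, 4.55% were separated in this direction and 4.91% in the other, beside 2 and 0 of the 10 members. HSPA5 had a log2 fold change of 0.09 ± 0.06 (SE), close to its value in all 8. PDIA3 and PDIA4 turned to negative values of -0.02 and -0.00035, so that 7 of the 10 genes were positive, against 48.2% of all genes. None of the 10 passed.

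**Figure D2:**
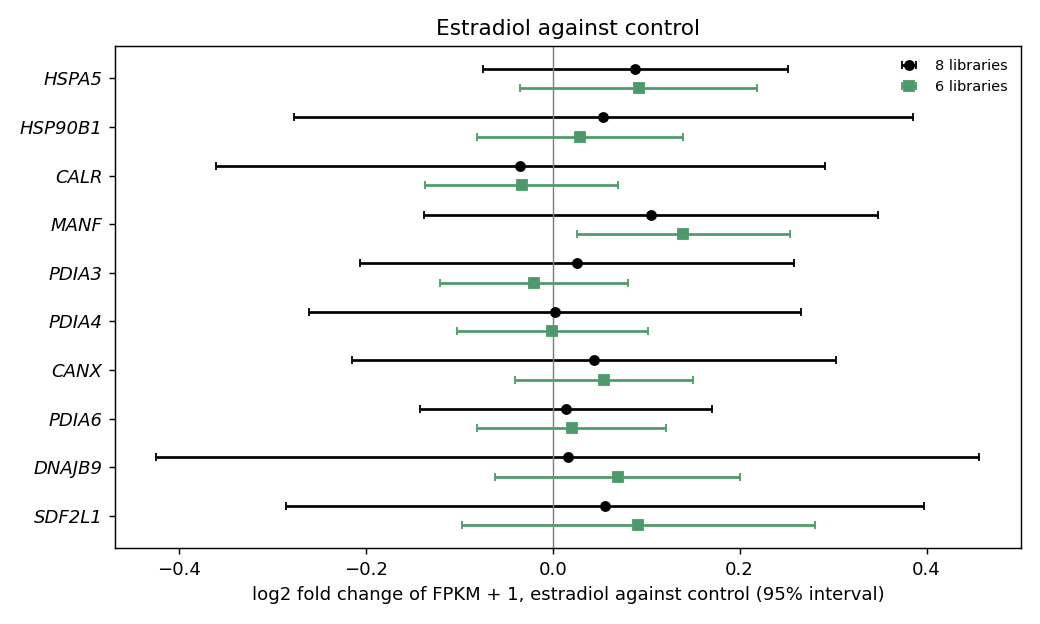
Log2 fold change of FPKM + 1 between estradiol and control libraries with its 95% limma interval, over all 8 libraries (black) and over the 6 without control replicate 3 and estradiol replicate 4 (green). All intervals over 8 libraries include 0, and over 6 libraries that of MANF, from 0.03 to 0.25, lies above it.

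The largest movement of the chaperone transcripts was between this pair and the other 6 libraries, and it divided the genes. HSP90B1, CANX, PDIA3 and DNAJB9 were higher in both libraries of the pair than in any other library, and CALR, PDIA4, SDF2L1 and MANF were lower. Of all tested genes 34.6% were above in this way and 43.9% below, so 4 of 10 in each direction is near the background. DNAJB9 stood at 1.56 times the mean of the other 6 libraries, HSP90B1 at 1.39, CANX at 1.26 and PDIA3 at 1.20. CALR stood at 0.724 times that mean, SDF2L1 at 0.737, PDIA4 at 0.789 and MANF at 0.818. HSPA5, at 1.06, and PDIA6, at 1.01, overlapped the other libraries.

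The division followed the GC content of the transcripts. DNAJB9 (40.4% GC), HSP90B1 (41.2%), CANX (41.6%) and PDIA3 (43.8%) were the 4 members lowest in GC and the 4 that were higher in the pair. PDIA6 (45.8%) and HSPA5 (46.0%) lay between, and MANF (51.6%), PDIA4 (53.0%), CALR (53.9%) and SDF2L1 (65.5%) were the 4 highest in GC and the 4 that were lower. The median tested gene had 47.9% GC. Over the 10 genes, which share the 8 libraries, Pearson's r between GC content and the log2 ratio was -0.88 and Spearman's rho -0.98, beside -0.89 for Spearman's rho over all tested genes.

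After removal of the trend with GC content in each library, the log2 ratio of the pair to the other 6 libraries shrank for 9 of the 10 members. It went from 0.65 to 0.31 for DNAJB9, from 0.48 to 0.17 for HSP90B1, from -0.47 to -0.16 for CALR and from -0.44 to -0.01 for SDF2L1. PDIA6 went from 0.01 to -0.04. The trend was fitted to these same libraries, so such shrinkage was likely in advance and is a description, not a test. The estradiol contrast then gave a log2 fold change of 0.11 ± 0.05 (SE) for MANF, 0.09 ± 0.06 for SDF2L1 and 0.08 ± 0.05 for HSPA5. None passed, with an adjusted limma p of 0.999882 for each of the 10 and an unadjusted limma p of 0.0483 for MANF. In that fit 2.45% of all genes had an unadjusted p under 0.05.

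**Figure D3:**
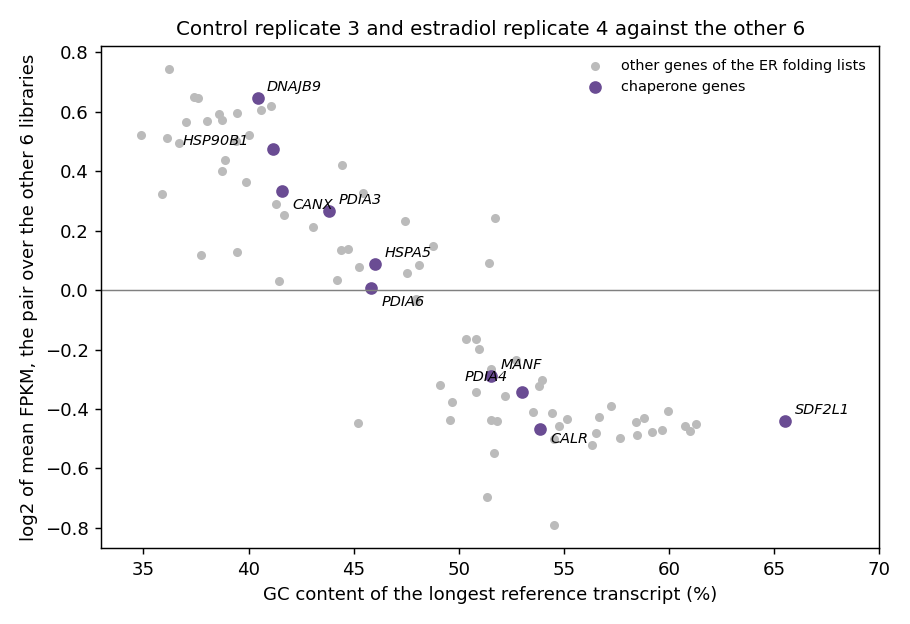
Log2 of the mean FPKM in control replicate 3 and estradiol replicate 4 over the mean of the other 6 libraries (vertical axis) against the GC content of the longest reference transcript (horizontal axis, %). Purple points are the 10 chaperone genes, from DNAJB9 at 0.65 to CALR at -0.47, and grey points are the other tested genes of the folding and quality-control lists.

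Ratios within a library do not depend on how the library was scaled, and they carried the same division. HSPA5 to HSP90B1 was 1.17 to 1.37 in the 6 libraries, but 0.989 in control replicate 3 and 0.956 in estradiol replicate 4. CALR to CANX was 3.33 to 3.70 in the 6 libraries and 2.04 and 1.97 in the pair. The ratio of CALR to CANX thus differed more between the pair and the rest than between the groups. It was 3.21 ± 0.787 without and 3.03 ± 0.709 with estradiol (SD, n = 4 each). Such ratios still carry the trend with GC content, which is 53.9% for CALR and 41.6% for CANX. With that trend removed the ratio was 3.31 ± 0.254 and 3.19 ± 0.222 (SD, n = 4 each, control first). SDF2L1 to DNAJB9, both BiP partners, was 0.745 to 0.943 in the 6 libraries and 0.387 and 0.413 in the pair.

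PDIA4 to PDIA6 was 1.08 ± 0.130 in control and 1.07 ± 0.122 in estradiol libraries, and MANF to HSPA5 was 0.173 ± 0.0183 and 0.175 ± 0.0255 (SD, n = 4 each). The group means of each of the 5 ratios thus differed by less than 1 SD between libraries. Without the pair, the groups overlapped for 4 of the 5 ratios, for example 1.17 to 1.32 against 1.24 to 1.37 for HSPA5 to HSP90B1 (control first). They did not overlap for CALR to CANX, at 3.45 to 3.70 without and 3.33 to 3.42 with estradiol. The sign of that difference rested on the libraries kept, from -0.18 over all 8 to 0.18 without estradiol replicate 4 alone. Ratios over chosen members were not tested.

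**Figure D4:**
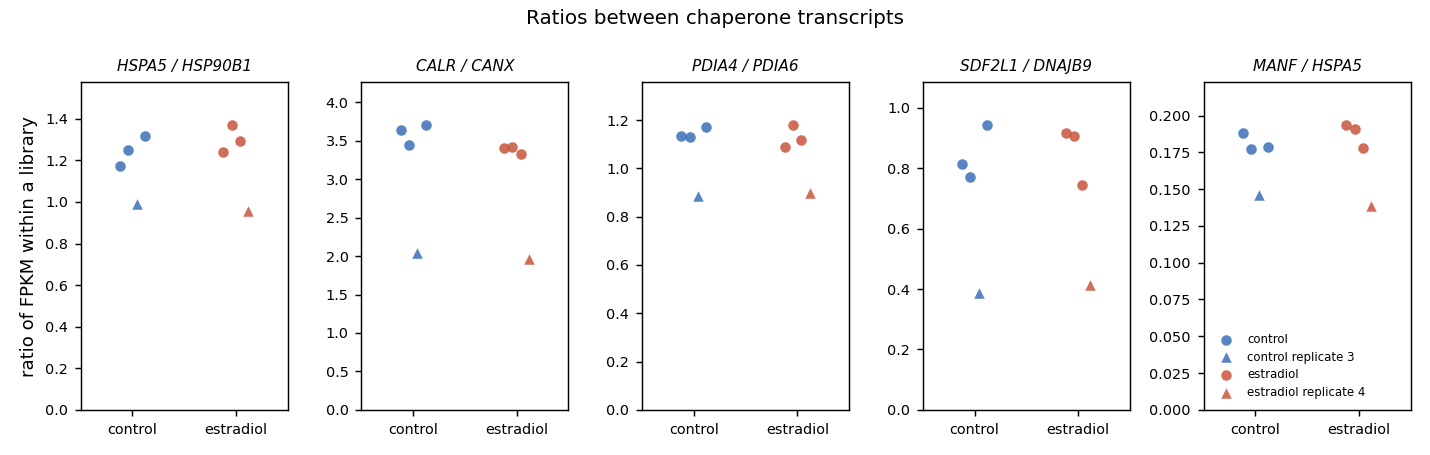
Ratios of FPKM between 2 chaperone genes within each library, control in blue and estradiol in red, with control replicate 3 and estradiol replicate 4 as triangles and each vertical axis starting at 0. The triangles are the lowest point of each group in all 5 panels, for example 2.04 and 1.97 for CALR to CANX against 3.33 to 3.70 in the other libraries.

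The summed level of the 10 genes was 9969.5 ± 382 FPKM without and 10322 ± 450.3 with estradiol (SD, n = 4 each), or 2.89 ± 0.180% and 2.99 ± 0.226% of all FPKM. The 2 libraries of the pair had the highest sums, 10496 and 10992 FPKM. In the other 6 libraries the sum was 9614 to 9984 FPKM in control and 10056 to 10179 in estradiol, with no overlap, and HSPA5 supplied 65% of the difference between their means. As a sum over chosen genes it has no test.

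The members did not form a single block of covariation. Over the 8 libraries the log2 levels of CALR and PDIA4 had a Pearson r of 0.99 and those of CALR and CANX -0.99, in libraries that differ in their GC trend. Over the 6 libraries without the pair, which also differ in their GC trend, the same 2 values were 0.63 and -0.62. HSPA5 had its highest correlation there with MANF (r = 0.78, n = 6 libraries). Among all tested genes the 5 most like HSPA5 over the 8 libraries were ZNF514, SMIM20, NDUFB1, SP1 and SNW1, with r from 0.94 to 0.96, while the nearest member, PDIA3, had 0.61. The 5 most like DNAJB9 were RRM2B, TMEM167A, SLC7A11, UFM1 and SLC30A9, all with r above 0.99 and with transcripts of 34.9% to 39.1% GC, and the nearest member was CANX, at 0.98. Within so few libraries, such values describe these libraries only.

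The wider folding and quality-control machinery was described with 9 lists of 78 genes, of which 76 were tested. None of the 76 passed in either direction, 0 had an unadjusted p under 0.05 and 0 had groups that did not overlap. There were 40 positive and 36 negative log2 fold changes, with a median of 0.00201. In control replicate 3 and estradiol replicate 4, 29 of the 76 were higher than in any other library and 38 lower. Over all tested genes these shares were 34.6% and 43.9%. Without that pair the groups did not overlap for 5 of the 76, 2 higher and 3 lower with estradiol. Over all genes 4.55% were separated upwards and 4.91% downwards in those 6 libraries. There 0 of the 76 had an unadjusted p under 0.05 by limma, against 3.85% of all genes. Signs in several lists moved without that pair, from 9 to 5 positive of 11 for the unfolded protein response, from 5 to 8 of 15 for the thiol oxidoreductases and from 0 to 1 of 6 for the N-glycan cycle, while the HSP70 cofactors went from 8 to 7 of 9.

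The other HSP70 cofactors of the endoplasmic reticulum were positive in 8 of 9, with a median log2 fold change of 0.04. The most abundant were HYOU1, an exchange factor of BiP, at 639 ± 78.1 FPKM in the control and 652 ± 108 in the estradiol libraries, and DNAJB11, a J-domain protein, at 235 ± 16.8 and 246 ± 12.5 (SD, n = 4 each). The genes of the N-glycan cycle that feeds calnexin and calreticulin were negative in 6 of 6, with a median of -0.03. They include GANAB and PRKCSH, the subunits of glucosidase II, at 196 ± 25.2 and 194 ± 27.7 FPKM and at 95.1 ± 16.4 and 92.9 ± 14.3 (SD, n = 4 each, control first). Differences of these sizes were within the spread between libraries.

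Among the other thiol oxidoreductases, 5 of 15 were positive. P4HB, the founding disulfide isomerase, stood at 759 ± 118 and 745 ± 100.5 FPKM, above PDIA3, PDIA4 and PDIA6, and PRDX4, a peroxiredoxin of the lumen, at 131 ± 12.8 and 132 ± 11.9 (SD, n = 4 each, control first). Of the prolyl isomerases and the collagen chaperone, 7 of 9 were tested and 4 were positive. PPIB, cyclophilin B, stood at 1042 ± 71.2 and 1068 ± 146 FPKM and SERPINH1, which folds collagen, at 249.7 ± 42.1 and 234 ± 33.4. CNPY2 was the highest of the 3 genes listed beside HSP90B1 (CNPY2, CNPY3 and CNPY4), at 19.1 ± 2.36 and 18.8 ± 2.78 (SD, n = 4 each).

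Genes that act downstream of misfolding did not pass either. Of the 13 genes of endoplasmic-reticulum-associated degradation, 7 were positive, with HERPUD1, a scaffold of the degradation complex, at 306 ± 4.92 and 308 ± 4.81 FPKM and OS9, a lectin for misfolded glycoproteins, at 161 ± 21.6 and 164 ± 26.3 (SD, n = 4 each, control first). HERPUD1, itself a known target of the unfolded protein response, varied little between libraries, from 300.5 to 313 FPKM. Of the 11 sensors and factors of that response, 9 were positive, with a median log2 fold change of 0.00492.

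PPP1R15A, which ends the translational block, stood at 368 ± 58.8 and 376 ± 55.2 FPKM, and DDIT3, the factor CHOP, at 277 ± 40.5 and 276 ± 27.9 (SD, n = 4 each, control first). XBP1, named after its values were seen, was steadier over the 8 libraries, at 138 ± 1.53 and 141 ± 3.78. Without control replicate 3 and estradiol replicate 4 its coefficient of variation was 2.04%, beside 2.33% for DDIT3 and 7.03% for PPP1R15A. The splicing of XBP1 cannot be read from gene levels. The translocon, through which nascent chains enter, was positive in 6 of 9, with SEC61A1 at 436 ± 54.4 and 431 ± 37.8 and SEC61G at 358 ± 130.3 and 359 ± 32.6. KDELR2, one of the receptors that return chaperones bearing a KDEL-type tail from the Golgi, stood at 164 ± 12.3 and 160.04 ± 6.44, and 0 of the 3 KDEL receptors were positive (SD, n = 4 each).

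**Figure D5:**
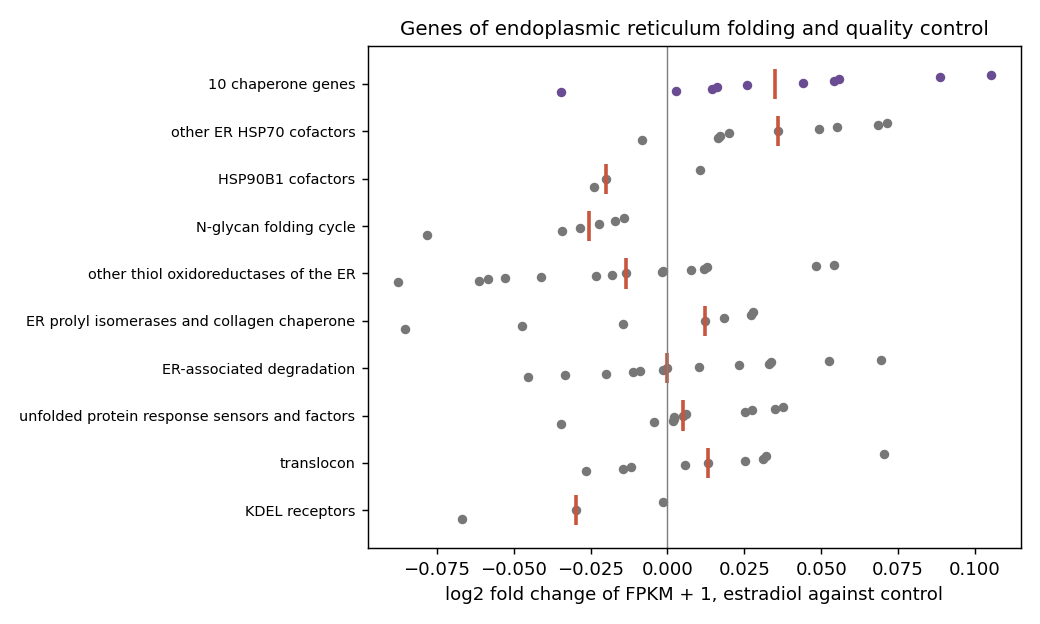
Log2 fold change of FPKM + 1 between estradiol and control libraries for each tested gene of the 10 chaperones (purple) and of 9 lists of other folding and quality-control genes (grey), with the median of each list as a red line. All points lie between -0.09 and 0.11, and no gene passed the test.

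Endothelial markers were present in both groups, and markers of other cell types were mixed. Of 10 endothelial markers 8 were tested, with ESAM at 176 ± 26.5 and 172 ± 24.6 FPKM and CDH5 at 129 ± 19.5 and 125 ± 15.2 (SD, n = 4 each, control first), while VWF and EMCN stood under 1 FPKM. Their summed level was 417 to 553 FPKM in control and 414 to 539.7 in estradiol libraries. The 7 fibroblast markers summed to 0.218 to 0.351 FPKM in control and 0.222 to 0.317 in estradiol libraries, led by PDGFRA and PDGFRB, and LUM was listed at 0. The 8 macrophage markers summed to 78.8 to 96.5 FPKM in the control and 81.7 to 94.0 in the estradiol libraries, nearly all of it from LAPTM5 (49.5 FPKM on average) and CD68 (39.6), while PTPRC and CSF1R averaged below 0.01 FPKM and CD163 was listed at 0. The 6 smooth muscle markers summed to 24.1 to 36.5 and 24.0 to 35.6 FPKM, from SMTN, ACTA2 and TAGLN, with MYH11 and CNN1 averaging below 0.1 FPKM and DES listed at 0. The 6 epithelial markers summed to 81.8 to 126 and 83.5 to 113 FPKM, mostly from KRT19 (48.9 FPKM on average) and KRT18 (46.4), while EPCAM and CDH1 averaged below 0.01 FPKM. The log2 fold change was negative for 7 of the 8 endothelial markers tested. In the 6 libraries without the pair, 3 of the 17 markers tested had an unadjusted p under 0.05 by limma, against 3.85% of all genes. All 3 had lower values under estradiol, at a log2 fold change of -0.32 ± 0.11 for CLDN5, -0.15 ± 0.06 for KRT19 and -0.17 ± 0.07 for KRT18 (SE). CLDN5 averaged only 1.82 FPKM and its groups overlapped there. KRT19 and CDH5 had groups that did not overlap, both lower with estradiol. Of all genes in these 6 libraries, 4.91% were separated in that direction. No marker passed the test with adjustment, and their part in the chaperone levels was not tested.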

How the data were processed

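The authors deposited 1 table of FPKM values, in which rows are gene symbols and columns are libraries. The tools fastp 0.20.1 and HTSeq are named per the submitters' processing notes. Aligner, genome build, annotation and strand setting: not given in the sources used here. Columns were tied to samples by library name, and groups and replicate numbers came from the titles. The 10 genes, the gene lists and the tests were chosen with earlier results of these data known.

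Whole reads were recovered from the FPKM steps (FPKM equals reads divided by gene length and library total). All 152348 values above 0 matched whole reads within a relative tolerance of 1e-06. Depth ranged from 33421051 to 39899258 reads.

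Values on the log2(FPKM + 1) scale were fitted in limma 3.58.1 (R 4.3.3) with its trended prior variance, two-sided, after a filter at a mean of 1 FPKM and Benjamini-Hochberg adjustment over 10720 genes. This scale understates changes of low genes. Group means were also compared by exact permutation over 70 relabellings. GC content came from the longest GENCODE 29 transcript of each gene name, for 98.2% of tested genes, and its trend was removed by lowess in 1 alternative. The recovery and the limma fit were tested on simulated data.

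Named genes were the 10 members, any gene past the threshold, otherwise the 2 most abundant genes of each list (1 where the list had fewer than 5), and the 5 genes most correlated with HSPA5 and with DNAJB9. XBP1, HSP90AA1, CDNF, CALR3, PDILT, MZB1, AGR2, AGR3, CALR to CANX without the pair, and markers beyond the 2 most abundant were added after their values were seen. Alternatives were a pseudocount of 0.1, no filter, a filter at 5 FPKM, median-of-ratios factors, no trend, a replicate block, each library left out, the pair left out, a term for the pair, GC removal and limma-voom on reads.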

Additional observations from a re-analysis of the deposited data

Results flagged for a closer look

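In 15 of 36 groups of 4 values examined (the 10 genes, their sums and shares, and 5 ratios, in control and in estradiol libraries), 1 library lay far from the other 3 by Dixon's test at its 95% critical value. Chance gives about 1 in 20 such groups. All 15 were in control replicate 3 or estradiol replicate 4, the pair described in the report, and the groups are not independent because they share these libraries. HSP90B1 was far above the rest at 3282 FPKM in control replicate 3 and 3586 in estradiol replicate 4, and CANX at 557 and 562. CALR was far below at 1135 and 1104 FPKM. In estradiol replicate 4 alone, PDIA3 was far above at 614 FPKM and DNAJB9 at 272, as were the summed level of the 10 genes at 10992 FPKM and their share of reads at 3.48%. Their share of all FPKM stood out at 3.16% in control replicate 3 and 3.33% in estradiol replicate 4. The ratio of CALR to CANX was far below the others at 2.04 and 1.97, and that of PDIA4 to PDIA6 at 0.887 in control replicate 3.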

How the results depend on the processing

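No gene passed in either direction under any of the 18 alternatives, so 0 of the 10 members did, with a smallest adjusted limma p for a member of 0.791. Of 180 member values, 159 kept their sign and 21 turned. Without the pair PDIA3 was -0.02 and PDIA4 -0.00035. The other 19 came from leaving out 1 library. Over those fits log2 fold changes ranged from 0.05 to 0.11 for HSPA5, 0.05 to 0.19 for MANF, -0.077 to 0.16 for HSP90B1, -0.15 to 0.083 for CALR, -0.034 to 0.13 for CANX, -0.063 to 0.069 for PDIA3, -0.084 to 0.087 for PDIA4, -0.0027 to 0.024 for PDIA6, -0.12 to 0.20 for DNAJB9 and -0.035 to 0.18 for SDF2L1. Without estradiol replicate 4, HSP90B1 (-0.077), CALR (0.083), CANX (-0.034), PDIA3 (-0.063) and DNAJB9 (-0.12) turned. Without control replicate 3, PDIA4 (-0.084) and SDF2L1 (-0.035) did. Without control replicate 1, CALR (0.01), PDIA3 (-0.00024) and DNAJB9 (-0.02) turned, without control replicate 2 DNAJB9 (-0.04), and without control replicate 4 CALR (0.01) and DNAJB9 (-0.08). Without estradiol replicate 1, PDIA4 (-0.02), PDIA6 (-0.0027) and SDF2L1 (-0.02) turned, without replicate 2 PDIA4 (-0.04) and SDF2L1 (-0.02), and without replicate 3 PDIA4 (-0.01). The cause was not tested.

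With the replicate block 0 genes passed, with 11 at an unadjusted p under 0.05, and the log2 fold change of HSPA5 was 0.09. Libraries with the same number share only the number: their deviations had correlations of 0.62, 0.07, -0.48 and -0.74 for replicates 1 to 4, and 1 of 8 libraries correlated best with its own number. Sums and ratios moved by less than 1 SD between libraries, but several changed sign or size when 1 library was left out. The difference in the summed level (estradiol minus control, 353 FPKM) ranged from 129 without estradiol replicate 4 to 528 without control replicate 3. CALR to CANX ranged from -0.57 without control replicate 3 to 0.18 without estradiol replicate 4, HSPA5 to HSP90B1 from -0.031 to 0.12, PDIA4 to PDIA6 from -0.074 to 0.049, SDF2L1 to DNAJB9 from -0.097 to 0.13 and MANF to HSPA5 from -0.0061 to 0.015, with the same pair of libraries left out at the ends. With the GC trend removed PDIA4 to PDIA6 turned from -0.0094 to 0.0036.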

Other observations

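Among relatives of the chaperones in other compartments, HSPA8, the constitutive HSP70 of the cytosol, stood at 1031 ± 48.6 FPKM without and 1074 ± 36.2 with estradiol. HSP90AB1, a cytosolic HSP90, stood at 659.8 ± 22.5 and 692 ± 5.81 (SD, n = 4 each, control first). Of these relatives 5 of 6 were tested, 4 had a positive log2 fold change, and 0 passed limma. HSP90AA1, the inducible cytosolic HSP90, had the highest log2 fold change of the 5, at 0.19 ± 0.16 (SE), with 557 ± 91.7 and 638 ± 136 FPKM (SD, n = 4 each) and overlapping groups. Without control replicate 3 and estradiol replicate 4 its groups did not overlap, with a log2 fold change of 0.16 ± 0.05 (SE), a 95% interval from 0.04 to 0.28 and an adjusted p of 0.990506 by limma. Its unadjusted p there was 0.0168 by limma, a level under 0.05 that 3.85% of all genes reached. The groups of HSP90AB1 did not overlap in those 6 libraries either, with an unadjusted p of 0.238 by limma. Both genes were higher with estradiol, and 4.55% of all genes were separated in that direction. CDNF, the paralog of MANF, was under the filter at 0.356 FPKM.

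Relatives known from other tissues were nearly silent. HSPA1L was the highest of 8, at 1.11 FPKM, and CLGN, the testis relative of calnexin, stood at 0.449 FPKM. CALR3, the testis relative of calreticulin, PDILT, a testis disulfide isomerase, and MZB1, a chaperone of plasma cells, averaged below 0.01 FPKM, and AGR2 and AGR3, isomerases of mucus-secreting epithelium, were listed at 0 in all 8 libraries.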
